A study of Homo sapiens with 9 samples.

Results

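The death receptors and the caspase-8 pathway were described through 10 genes, found as the rows of the deposited expression table whose symbol was TNFRSF10A, TNFRSF10B, FAS, TNFRSF1A, FADD, TRADD, RIPK1, CASP8, CASP10 or CFLAR. All 10 were present among 23621 gene rows, and 9 passed the filter for testing, a mean of at least 1 FPKM (a fragment count scaled to transcript length and library size). TNFRSF10A did not pass. Measured were polyA RNA levels in MOLT4, a human T-cell acute lymphoblastic leukemia line, sampled once, 6 h after treatment began, in 3 groups of 3 libraries.

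Death receptors carry a death domain inside the cell, and ligand binding lets them gather adaptor proteins. FADD links the TRAIL receptors and FAS to the initiator caspases CASP8 and CASP10, while CFLAR (c-FLIP) sits in the same complex and limits or shapes caspase-8 activity. The TNF receptor TNFRSF1A instead gathers TRADD and RIPK1, from which either NF-kB signalling or, in a later complex with FADD and CASP8, cell death can follow. In T cells the FAS, FADD and CASP8 route is best known for removing activated lymphocytes.

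The groups were named by the library titles: 3 libraries titled MI_3_89 (here MI-389), 3 titled sunitinib, and 3 titled DMSO, the solvent control at 0.1%. Sunitinib is an inhibitor of several receptor tyrosine kinases, and MI-389 is known from the study's field as a compound that brings about loss of the translation termination factor GSPT1. The source field of the labels crosses these names, giving sunitinib at 1 µM for the libraries titled MI-389 and MI-389 at 0.1 µM for those titled sunitinib. Column names and library barcodes follow the titles, but if the source field is right, each statement on one compound belongs to the other. No transcript was available that checks the compound, since GSPT1 is lost as a protein. The doses of the treated groups differ, so that compound and dose cannot be told apart between them. All libraries came from 1 cell line, and nothing in the labels says that replicates were separate cultures, so the p-values measure the spread between these libraries, which may be technical.

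Markers of the line were in place: 12 of 12 T-lineage leukemia markers had a mean of at least 1 FPKM, with a summed level of 3425 to 3647 FPKM in libraries titled MI-389, 4020 to 4258 FPKM in those titled sunitinib and 3763 to 4721 FPKM in DMSO libraries. Of the marker lists for other cells, 1 of 4 B-cell genes, 0 of 5 myeloid genes and 1 of 5 genes of epithelium and fibroblasts reached that level. Across all 9 libraries their summed levels were 6.98 to 10.1, 0.873 to 1.15 and 1.88 to 3.10 FPKM. Between 11927 and 12245 rows per library held at least 1 FPKM. Read depth is unknown, because the table gives FPKM only. The 16 most abundant spike-in RNAs were level between groups, with a median log2 difference of −0.03 for MI-389 against DMSO and −0.01 for sunitinib against DMSO. Whether the deposited values had already been scaled to these RNAs is not stated, and such a step would make them level. As they were level, spike-in rescaling, 1 of the 4 other scalings, moved group levels little. Summed FPKM was 2538508 to 2614363 in libraries titled MI-389. It was 3378768 to 3631607 in those titled sunitinib and 3040305 to 3479199 in DMSO libraries.

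For 6 of the 10 genes the RefSeq promoter table (build GRCh38.p14, another build than that of the expression table) held at least 1 window. Shown are the 250 bases before the start of FAS (chr10:88990548-88990797, plus strand, the most upstream of 3 windows), TNFRSF1A (chr12:6342077-6342326, minus strand) and FADD (chr11:70203046-70203295, plus strand), because these 3 genes changed in libraries titled MI-389 against DMSO under every setting tried and have a window. Capitals mark matches, on either strand, to TGANTCA (AP-1), TGATGNAA (C/EBP-ATF) or GGGCGG (GC box). N stands for any base, so TGANTCA is looser than the AP-1 consensus, which has C or G in the middle.
FAS: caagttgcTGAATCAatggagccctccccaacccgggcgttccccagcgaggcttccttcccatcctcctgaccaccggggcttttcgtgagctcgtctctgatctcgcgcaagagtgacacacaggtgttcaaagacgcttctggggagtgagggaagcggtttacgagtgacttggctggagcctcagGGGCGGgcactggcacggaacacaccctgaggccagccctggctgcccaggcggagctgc
TNFRSF1A: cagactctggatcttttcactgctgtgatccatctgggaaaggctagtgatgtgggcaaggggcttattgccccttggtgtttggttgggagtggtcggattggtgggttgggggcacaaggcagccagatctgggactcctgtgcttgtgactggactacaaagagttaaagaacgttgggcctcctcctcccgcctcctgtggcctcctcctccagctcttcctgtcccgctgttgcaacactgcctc
FADD: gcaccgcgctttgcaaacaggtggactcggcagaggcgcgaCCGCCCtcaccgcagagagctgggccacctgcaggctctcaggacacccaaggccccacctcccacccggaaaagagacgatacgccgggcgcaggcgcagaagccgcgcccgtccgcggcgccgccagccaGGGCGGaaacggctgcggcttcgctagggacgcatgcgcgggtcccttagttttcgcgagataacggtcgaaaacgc
The FAS window held a TGANTCA match, with A in the middle and so outside the AP-1 consensus, beginning 242 bases before the start. A GC box began 60 bases before it. The other 2 FAS windows held no TGANTCA match, and 2 and 1 GC boxes. The pattern was not particular to FAS. Among windows not shown, a CASP8 window held TGACTCA, within the consensus, beginning 61 bases before its start. A CFLAR window held TGAATCA beginning 160 bases before its start. CASP8 was not called in libraries titled MI-389 against DMSO. In FADD, GC boxes began 209 and 77 bases before the start. The TNFRSF1A window held none of the 3 motifs. Of 35116 windows of the same length in the table, 6.57% held a TGANTCA match, 3.14% a C/EBP-ATF match and 42.6% a GC box. No 2 of these matches overlapped in the windows shown. A match is a description of letters and no evidence of binding.

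The pathway's RNA was present at very unequal levels per transcript length. TNFRSF1A was the most abundant of the 10 in each group, at 70.6 ± 2.08 FPKM in libraries titled MI-389, 48.6 ± 2.20 FPKM in those titled sunitinib and 49.6 ± 4.18 FPKM in DMSO libraries (SD, n = 3 each). CASP8 and FADD followed, and the ranges of these neighbours overlapped in DMSO libraries but not in either treated group. RIPK1 ranked next everywhere. Below it stood CASP10, FAS, TRADD and CFLAR, whose order differed between groups: in libraries titled MI-389 the ranges of RIPK1 and CASP10 and those of CASP10 and FAS overlapped, and those of CFLAR and TRADD did too. In libraries titled sunitinib, FAS and TRADD overlapped, and in DMSO libraries FAS overlapped TRADD and TRADD overlapped CASP10. TNFRSF10B was the least abundant of the 9 tested genes, at 6.20 ± 0.337 FPKM in libraries titled MI-389, 5.13 ± 0.213 FPKM in those titled sunitinib and 5.49 ± 0.301 FPKM in DMSO libraries (SD, n = 3 each). As these are bulk RNA values of a cell line, a change in some of the cells and a smaller change in all of them cannot be told apart.

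**Figure D1:**
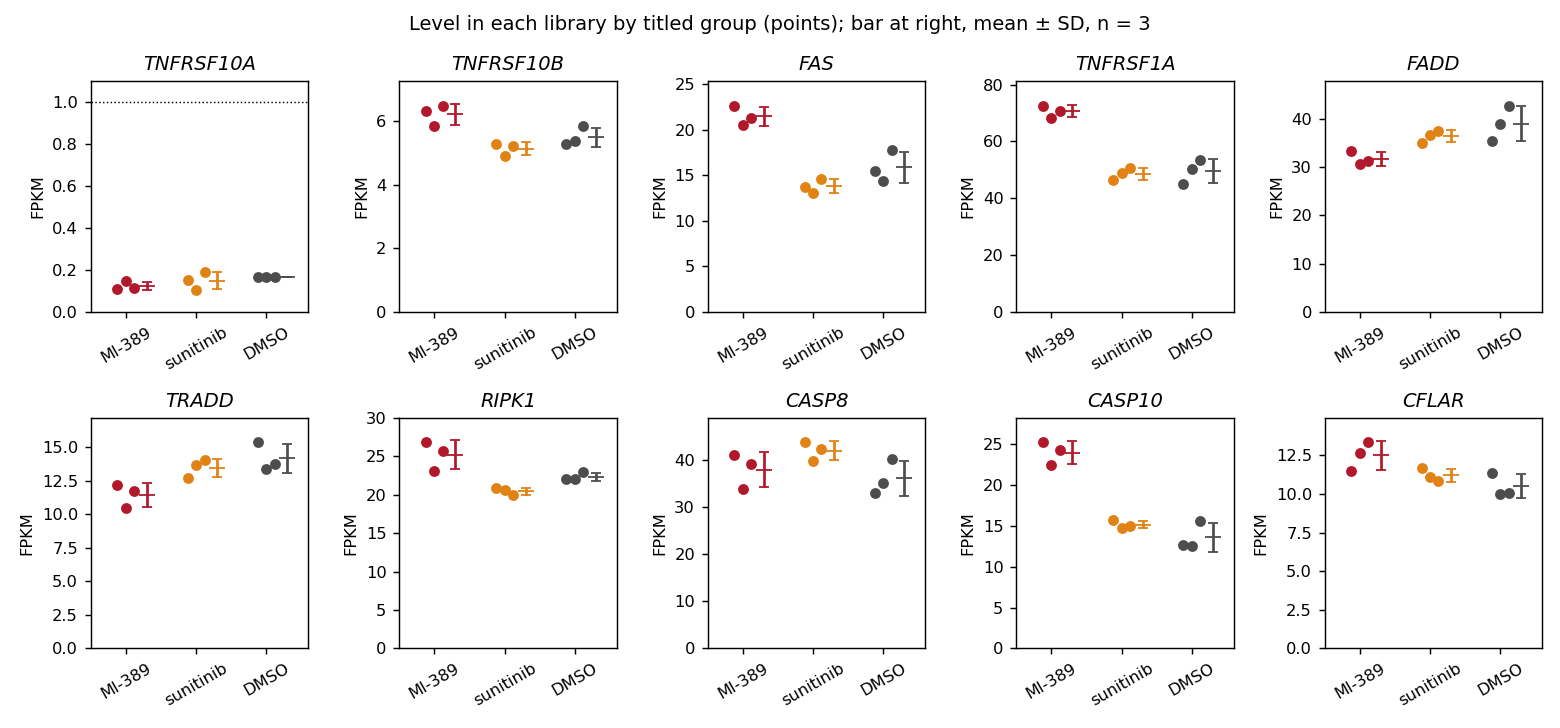
Expression level (FPKM, linear axis from 0) of the 10 genes in each library, by titled group, with the mean ± SD of 3 libraries beside the points. In the TNFRSF10A panel the dotted line marks the 1 FPKM filter, and all 9 points lie below it. CASP10, FAS and TNFRSF1A points in libraries titled MI-389 lie above all DMSO points, and FADD and TRADD points lie below them.

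In libraries titled MI-389 against DMSO, 7 of the 9 tested genes changed. Higher were the receptors FAS and TNFRSF1A, the kinase RIPK1, the initiator caspase CASP10 and the regulator CFLAR, and lower were the adaptors FADD and TRADD. The CASP10 difference was the widest of the 9, at 1.76-fold. CASP8, the caspase at the centre of the pathway, and TNFRSF10B, the second TRAIL receptor, did not pass the test. At an adjusted p of 0.05 (limma, Benjamini-Hochberg over 12301 genes), 56.7% of all tested genes were called in this comparison, 28.5% higher and 28.3% lower, so most genes changed and the count of 7 is to be read against that share. The 9 genes had a median log2 difference of 0.17, against −0.00 over all tested genes. Groups did not overlap for 5 higher and 2 lower members, against 60.2% of all tested genes, 30.5% higher and 29.7% lower. By direction, 3502 genes were called higher and 3477 lower, against 3222 and 4956 when each library was centred on its median.

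CASP10, an initiator caspase close in sequence to CASP8, had 25.2, 22.4 and 24.3 FPKM in libraries titled MI-389, 15.7, 14.8 and 15.1 FPKM in those titled sunitinib, and 12.6, 12.5 and 15.7 FPKM in DMSO libraries. Every library titled MI-389 lay above all the others. Against DMSO the mean was 1.76-fold higher, a log2(FPKM + 1) difference of 0.78 (SE 0.08, 95% interval 0.59 to 0.97, adjusted p = 4.85e-05). Of all tested genes, 94.5% had a lower difference. CASP8 itself, which cleaves RIPK1 and BID, had 41.0, 33.8 and 39.1 FPKM in libraries titled MI-389, 43.7, 39.7 and 42.4 FPKM in those titled sunitinib, and 32.9, 35.1 and 40.2 FPKM in DMSO libraries. The ranges of all 3 groups overlapped. Its difference between libraries titled MI-389 and DMSO was 0.07 (95% interval −0.13 to 0.27, adjusted p = 0.515). It was −0.0069 once libraries were centred on their medians and −0.013 after quantile normalization, neither of them called. CFLAR, CASP10 and CASP8 lie next to each other in that order in RefSeq, and a row per symbol does not separate the isoforms of any of them, among them the long and short forms of c-FLIP.

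FAS, the CD95 receptor, had 22.6, 20.5 and 21.3 FPKM in libraries titled MI-389, 13.7, 13.1 and 14.6 FPKM in those titled sunitinib, and 15.4, 14.4 and 17.7 FPKM in DMSO libraries. The lowest library titled MI-389 stood above the highest DMSO library, while the sunitinib and DMSO ranges overlapped. Its mean was 1.35-fold higher than in DMSO (log2 difference 0.42, SE 0.08, 95% interval 0.24 to 0.59, adjusted p = 0.00144). TNFRSF1A, the main TNF receptor, had 72.6, 68.4 and 70.8 FPKM in libraries titled MI-389, 46.3, 48.8 and 50.7 FPKM in those titled sunitinib, and 45.1, 50.2 and 53.4 FPKM in DMSO libraries. No library titled MI-389 overlapped another group. The mean was 1.42-fold higher than in DMSO (log2 difference 0.51, SE 0.07, adjusted p = 0.000167). FAS overlaps ACTA2 and FAS-AS1 in RefSeq. Libraries were unstranded, and reads from the shared stretches cannot be told apart. ACTA2 averaged 1.64 ± 0.308 FPKM in libraries titled MI-389, 1.05 ± 0.123 FPKM in those titled sunitinib and 0.956 ± 0.0434 FPKM in DMSO libraries, and FAS-AS1 0.207 ± 0.0356, 0.222 ± 0.0596 and 0.145 ± 0.0381 FPKM in the same order (SD, n = 3 each).

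Of the TRAIL receptors, TNFRSF10B (DR5) was tested and TNFRSF10A (DR4) was not. TNFRSF10B had 6.31, 5.83 and 6.48 FPKM in libraries titled MI-389, 5.28, 4.88 and 5.22 FPKM in those titled sunitinib, and 5.28, 5.36 and 5.84 FPKM in DMSO libraries. The lowest library titled MI-389 lay just under the highest DMSO library. The difference was 0.15 on the log2 scale, with a 95% interval of −0.01 to 0.31 (adjusted p = 0.104), and no alternative setting brought it past the threshold (adjusted p 0.0545 to 0.468). TNFRSF10A (DR4) had 0.108, 0.147 and 0.114 FPKM in libraries titled MI-389, 0.153, 0.105 and 0.189 FPKM in those titled sunitinib, and 0.167, 0.165 and 0.166 FPKM in DMSO libraries. Those values lie close to the level of 0.0989 to 0.104 FPKM at which FASLG, an undetected gene, is listed, and rest on few reads or none, so no difference was tested. TNFRSF10B overlaps RHOBTB2 in RefSeq, which averaged 5.44 ± 0.442 FPKM in libraries titled MI-389, 5.06 ± 0.104 FPKM in those titled sunitinib and 6.15 ± 0.332 FPKM in DMSO libraries (SD, n = 3 each).

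Both death-domain adaptors were lower. FADD had 33.4, 30.7 and 31.3 FPKM in libraries titled MI-389, 35.1, 36.6 and 37.5 FPKM in those titled sunitinib, and 35.3, 39.1 and 42.8 FPKM in DMSO libraries. Its highest library titled MI-389 was below the lowest library of either other group. The mean was 0.814 of that in DMSO (log2 difference −0.29, SE 0.07, 95% interval −0.45 to −0.13, adjusted p = 0.0067). TRADD, which docks on TNFRSF1A, had 12.2, 10.5 and 11.7 FPKM in libraries titled MI-389, 12.7, 13.7 and 14.0 FPKM in those titled sunitinib, and 15.4, 13.3 and 13.8 FPKM in DMSO libraries, again without overlap with either. The TRADD mean was 0.81 of that in DMSO (log2 difference −0.28, SE 0.08, 95% interval −0.45 to −0.11, adjusted p = 0.00965). The calls of FAS, TNFRSF1A, FADD, TRADD and CASP10 against DMSO held in all 17 alternative settings, with log2 differences over the 4 other scalings of 0.29 to 0.43 for FAS, 0.43 to 0.52 for TNFRSF1A, −0.37 to −0.28 for FADD, −0.43 to −0.28 for TRADD and 0.67 to 0.79 for CASP10.

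RIPK1 and CFLAR were called by a narrow margin. RIPK1, the kinase shared by the survival and death complexes, had 26.8, 23.1 and 25.7 FPKM in libraries titled MI-389, 20.9, 20.6 and 19.9 FPKM in those titled sunitinib, and 22.01, 22.04 and 22.9 FPKM in DMSO libraries. No library titled MI-389 overlapped the other groups. The mean was 1.13-fold higher than in DMSO (log2 difference 0.17, SE 0.06, adjusted p = 0.0389). The call was lost without DMSO replicate 1 (adjusted p = 0.0789) or 2 (0.0957), or without replicate 1 (0.15) or 3 (0.118) of the libraries titled MI-389, and held in 8 of 17 alternatives. CFLAR, the decoy-like regulator of caspase-8, had 11.5, 12.7 and 13.3 FPKM in libraries titled MI-389, 11.7, 11.1 and 10.8 FPKM in those titled sunitinib, and 11.4, 10.0 and 10.0 FPKM in DMSO libraries. The lowest library titled MI-389 was barely above the highest DMSO library. The mean was 1.19-fold higher (log2 difference 0.23, SE 0.07, adjusted p = 0.0213). This call was lost without DMSO replicate 2 (adjusted p = 0.0681) or 3 (0.0535), or without replicate 2 (0.0576) or 3 (0.0899) of the libraries titled MI-389, and held in 9 of 17 alternatives. Once libraries were centred on their medians the adjusted p was 0.0929 for RIPK1 and 0.17 for CFLAR. Quantile normalization gave 0.114 and 0.39, and cyclic loess gave 0.163 and 0.244.

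**Figure D2:**
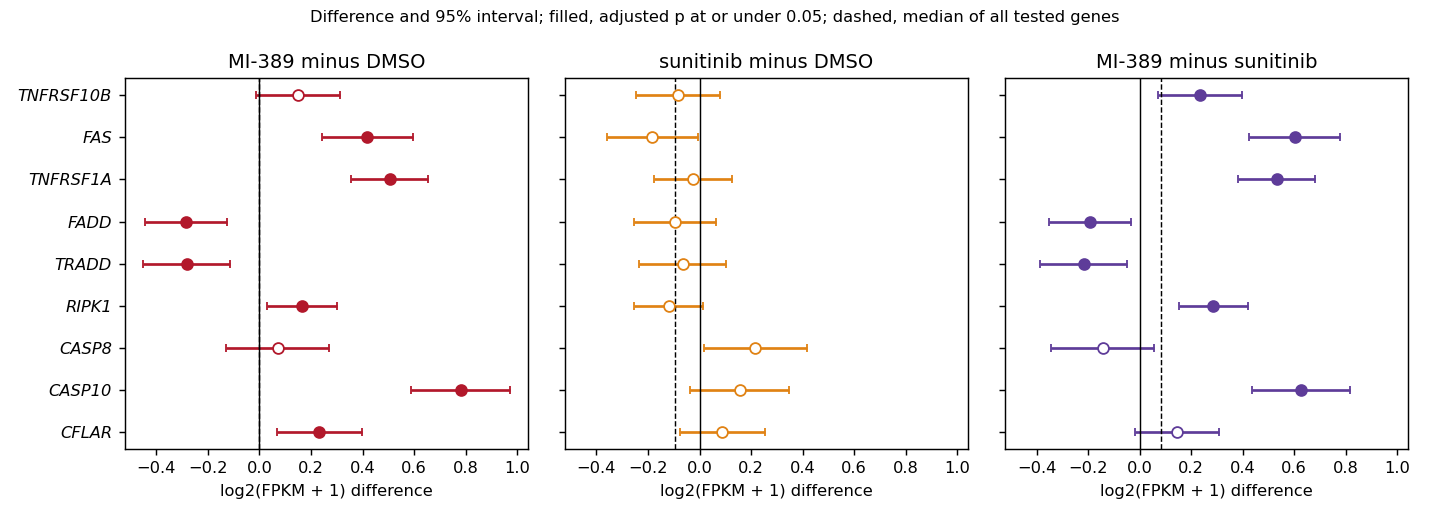
Difference in log2(FPKM + 1) with its 95% interval for the 9 tested genes, for libraries titled MI-389 minus DMSO, sunitinib minus DMSO and MI-389 minus sunitinib, each from 3 libraries a group; filled points passed an adjusted p of 0.05, and the dashed line is the median of all 12301 tested genes. CASP10 at 0.78 lies farthest from 0 in the first panel, and no point is filled in the second. CASP8 in the first panel, TNFRSF10B, TNFRSF1A, FADD and TRADD in the second and CFLAR in the third change sign under at least 1 other scaling.

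Because the pathway works through complexes, ratios of partners were read within each library, where a scaling of the whole library cancels. They are descriptions with no test. CASP10 over CASP8 was 0.616, 0.664 and 0.622 in libraries titled MI-389, 0.359, 0.373 and 0.355 in libraries titled sunitinib, and 0.384, 0.357 and 0.39 in DMSO libraries, so that the libraries titled MI-389 stood apart. FAS over its adaptor FADD was 0.677, 0.669 and 0.68 in libraries titled MI-389, 0.391, 0.357 and 0.388 in libraries titled sunitinib, and 0.437, 0.369 and 0.415 in DMSO libraries. TNFRSF1A over its adaptor TRADD was 5.95, 6.53 and 6.04 in libraries titled MI-389, 3.63, 3.57 and 3.61 in libraries titled sunitinib, and 2.94, 3.76 and 3.87 in DMSO libraries. Each receptor was thus higher relative to its adaptor in every library titled MI-389 than in any other library. This follows from the levels above, as both receptors lay above and both adaptors below all other libraries, and is no further result. CASP8 over CFLAR was 3.57, 2.67 and 2.93 in libraries titled MI-389, 3.74, 3.58 and 3.93 in libraries titled sunitinib, and 2.89, 3.51 and 4.0 in DMSO libraries, with MI-389 and DMSO ranges overlapping. CASP10 over CFLAR was 2.20, 1.77 and 1.82 in libraries titled MI-389, 1.34, 1.34 and 1.39 in libraries titled sunitinib, and 1.11, 1.25 and 1.56 in DMSO libraries, where only the group titled MI-389 was separate.

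**Figure D3:**
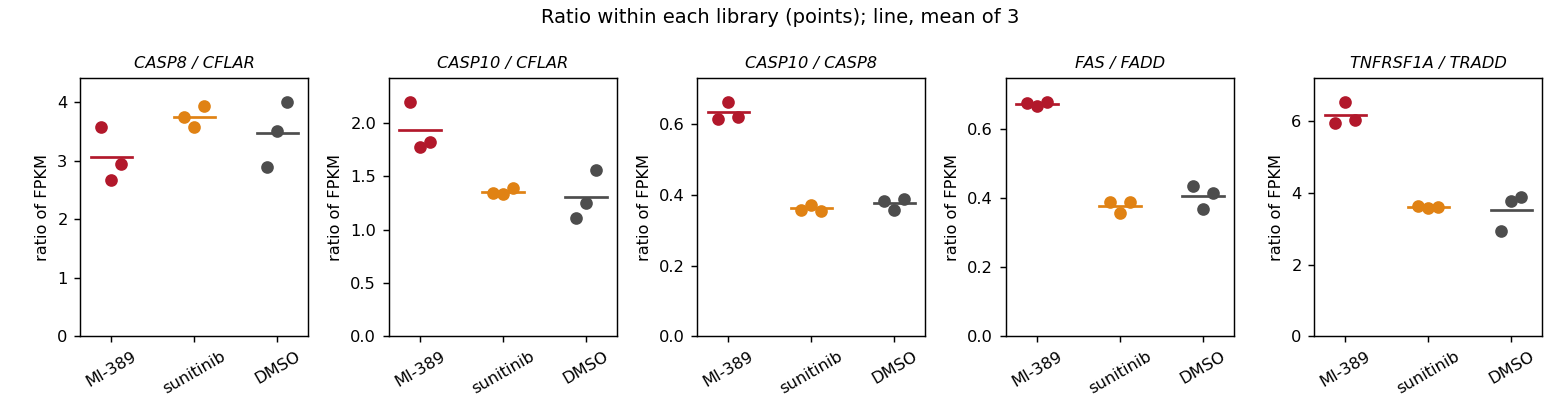
Ratio of FPKM between pathway partners within each library (points, linear axis from 0) with the mean of 3 libraries as a line, by titled group. CASP10 over CASP8, FAS over FADD and TNFRSF1A over TRADD are higher in all 3 libraries titled MI-389 than in the other 6, while CASP8 over CFLAR overlaps between MI-389 and DMSO.

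In libraries titled sunitinib against DMSO, none of the 9 tested genes passed the test by limma, and FAS and CASP8 alone had an unadjusted p under 0.05. Over all tested genes 19.3% were called, 2.37% higher and 16.9% lower. The median log2 difference of the 9 genes was −0.07, against −0.10 over all tested genes. FAS had a difference of −0.18 (95% interval −0.36 to −0.01, adjusted p = 0.132) and CASP8 one of 0.22 (0.02 to 0.42, adjusted p = 0.12). The remaining intervals were −0.25 to 0.08 for TNFRSF10B, −0.18 to 0.12 for TNFRSF1A, −0.25 to 0.06 for FADD, −0.23 to 0.10 for TRADD, −0.26 to 0.01 for RIPK1, −0.04 to 0.35 for CASP10 and −0.08 to 0.25 for CFLAR, which leaves room for differences of those sizes. TNFRSF10B and RIPK1 were lower in every library titled sunitinib than in any DMSO library, and 0 members lay above. Such separation was seen for 35.2% of all tested genes, 5.89% higher and 29.3% lower. For TNFRSF10B it was nearly a tie, with 5.280 FPKM in the highest library titled sunitinib and 5.281 FPKM in the lowest DMSO library.

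The sunitinib comparison depended on the scaling, with the median of all genes below 0 as deposited. Relative to the median of all genes, CASP8 stood 0.31 higher, CASP10 0.25 higher and CFLAR 0.18 higher on the log2 scale. CASP8 was called higher with median centring (0.30, adjusted p = 0.00358), quantile normalization (0.31, adjusted p = 0.00274) and cyclic loess (0.32, adjusted p = 0.00227). CASP10 was called higher under the same 3 scalings (0.23 to 0.24, adjusted p 0.00504 to 0.00712) and without DMSO replicate 3 (0.25, adjusted p = 0.0301). Among all genes, 291 were called higher and 2079 lower as deposited, against 1270 and 1866 with median centring, 1696 and 1981 with quantile normalization, and 1852 and 1962 with cyclic loess. Leaving out single libraries moved the total of 2370 calls to 4250 without DMSO replicate 1 and to 1573 without DMSO replicate 3. It was 1542, 948 and 1020 without replicates 1, 2 and 3 of the libraries titled sunitinib.

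Set directly against the libraries titled sunitinib, those titled MI-389 differed in 7 of the 9 genes, where 56.3% of all tested genes were called. TNFRSF10B, FAS, TNFRSF1A, RIPK1 and CASP10 were higher, against a background of 36% called higher, and FADD and TRADD lower, against 20.3% called lower. The same 5 and 2 genes did not overlap between the groups, against 69.4% of all tested genes, 42.5% higher and 27% lower. The comparison shares the libraries titled MI-389 with the one against DMSO, so the calls are not independent of it. FAS was 1.56-fold higher (log2 difference 0.60, SE 0.08, adjusted p = 0.000152), CASP10 1.58-fold (0.63, SE 0.08, adjusted p = 0.000192) and TNFRSF1A 1.45-fold (0.53, SE 0.07, adjusted p = 0.000118), each called in all 17 alternatives. RIPK1 was 1.23-fold higher (0.29, SE 0.06, adjusted p = 0.00273) and lost its call with cyclic loess only (adjusted p = 0.0529). The median of all genes was 0.08 here and −0.08 with median centring, and relative to the deposited median FAS stood 0.52, CASP10 0.54, TNFRSF1A 0.45 and RIPK1 0.20 higher. All-gene calls split into 4427 higher and 2500 lower as deposited, against 3279 and 4863 with median centring, 3791 and 4426 with quantile normalization, and 4075 and 4040 with cyclic loess.

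The other 3 calls between the treated groups depended on the setting: TNFRSF10B and FADD kept theirs in 9 of 17 alternatives and TRADD in 11. With no filter on low values all 3 were lost (adjusted p = 0.0544, 0.0876 and 0.0776 in the same order). TNFRSF10B was 1.21-fold higher (log2 difference 0.23, 95% interval 0.07 to 0.40, adjusted p = 0.0205). It lost the call without replicate 2 of the libraries titled sunitinib (adjusted p = 0.0743) or without replicate 1 (0.0638) or 3 (0.0831) of those titled MI-389, and under 3 scalings, cyclic loess (0.135), median centring (0.248) and quantile normalization (0.266), and at a mean of at least 5 FPKM (0.0748). FADD, at 0.873 of its level in libraries titled sunitinib (log2 difference −0.19, adjusted p = 0.0425), lost it without replicate 1 (0.056), 2 (0.101) or 3 (0.126) of the libraries titled sunitinib or replicate 2 (0.121) or 3 (0.113) of those titled MI-389, and with the replicate number as a block (0.0577) or without the variance trend (0.0542). TRADD, at 0.85 (log2 difference −0.22, adjusted p = 0.0325), lost it without replicate 2 (0.0865) or 3 (0.11) of the libraries titled sunitinib or replicate 2 (0.114) or 3 (0.0597) of those titled MI-389, and with spike-in rescaling (0.0535). CASP8 (−0.14, 95% interval −0.34 to 0.06, adjusted p = 0.198) and CFLAR (0.14, −0.02 to 0.31, adjusted p = 0.121) were not called. CASP8 was called lower at −0.31 after median centring, −0.32 when quantiles were equalised and −0.28 by cyclic loess (adjusted p 0.000436 to 0.000983), and CFLAR turned to −0.021, −0.065 and −0.043 under these scalings, with no call.

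**Figure D4:**
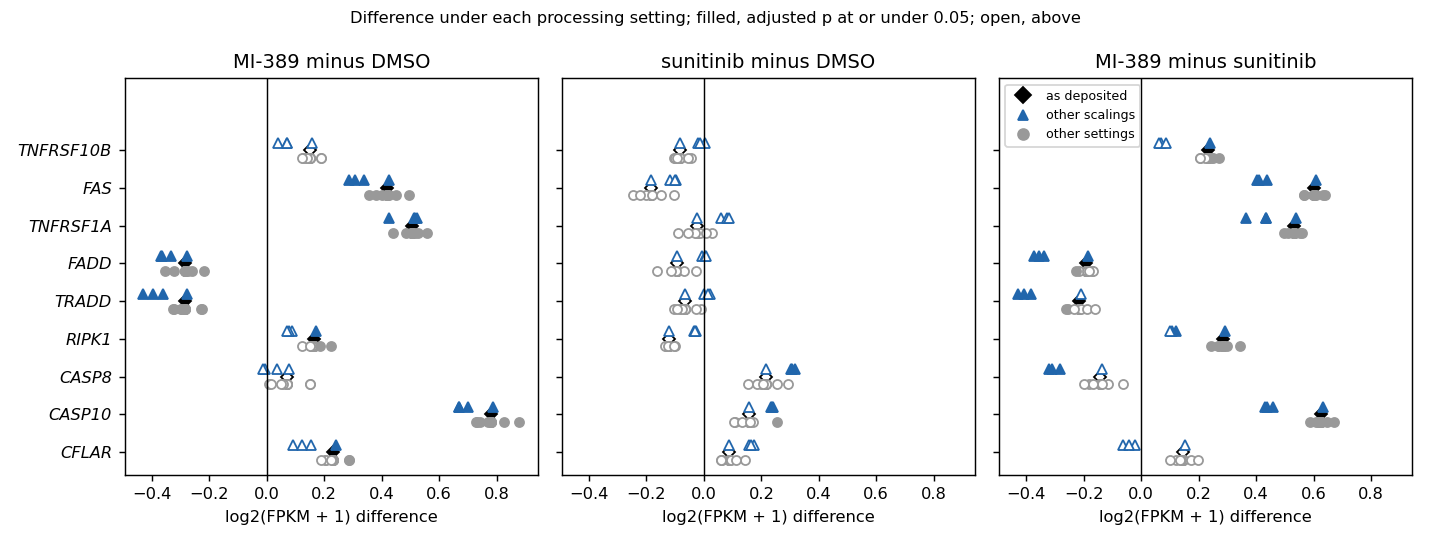
Difference in log2(FPKM + 1) of each tested gene as deposited (diamonds), under 4 other scalings (triangles) and under the remaining alternatives at that pseudocount, single libraries left out among them (circles); filled symbols passed an adjusted p of 0.05. FAS, TNFRSF1A, FADD, TRADD and CASP10 are filled throughout in the MI-389 minus DMSO panel. In sunitinib minus DMSO, CASP8 and CASP10 fill under 3 scalings, and TNFRSF10B, TNFRSF1A, FADD and TRADD cross 0 under at least 1; CASP8 in the first panel and CFLAR in the third cross 0 too.

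Of 6 ligands of these and related receptors, TNF and TNFSF10 (TRAIL) passed the filter, and 4 lay under it. TNF had 8.02, 6.15 and 7.83 FPKM in libraries titled MI-389, 0.782, 0.732 and 0.446 FPKM in those titled sunitinib, and 0.591, 0.689 and 0.764 FPKM in DMSO libraries. The group titled MI-389 lay above the rest, 10.8-fold higher than DMSO in the mean. TNF passed the filter only through that group, so its test is taken from the fit with no filter on low values (log2 difference 2.30, adjusted p = 2.48e-05). TNFSF10 had 7.56, 6.18 and 7.19 FPKM in libraries titled MI-389, 4.39, 3.76 and 3.83 FPKM in those titled sunitinib, and 4.93, 2.68 and 4.23 FPKM in DMSO libraries. It was 1.77-fold higher (log2 difference 0.71, adjusted p = 0.00385), with no overlap although the DMSO libraries scattered widely. FASLG, the ligand of FAS, was listed at 0.0989 to 0.104 FPKM in all 9 libraries. TNFSF10 was 1.75-fold higher in libraries titled MI-389 than in those titled sunitinib (log2 difference 0.67, adjusted p = 0.0053), and neither tested ligand was called in libraries titled sunitinib against DMSO. In the fit with no filter 4 of the 6 ligands were called against DMSO in libraries titled MI-389, where 6505 of 23621 genes were called. Those beside TNF and TNFSF10 lay under the 1 FPKM filter.

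Among 9 other death-domain, decoy and related receptors, 3 passed the filter and the TRAIL decoys TNFRSF10C, TNFRSF10D and TNFRSF11B did not. TNFRSF21 (DR6) averaged 7.18 ± 0.466 FPKM in libraries titled MI-389, 9.14 ± 1.02 FPKM in those titled sunitinib and 10.3 ± 0.146 FPKM in DMSO libraries (SD, n = 3 each). It was lower against DMSO (log2 difference −0.47, adjusted p = 0.000869). TNFRSF25 (DR3) was called lower as well (−0.32, adjusted p = 0.047), a call that held in 8 of 16 alternatives. It was lost without DMSO replicate 1 (adjusted p = 0.068), 2 (0.0775) or 3 (0.119) and without replicate 2 (0.161) or 3 (0.112) of the libraries titled MI-389. TNFRSF6B, a soluble decoy for FAS ligand, had a difference of 0.84 (adjusted p = 0.0715). The list median was −0.32, and 28.3% of all tested genes were called lower in libraries titled MI-389 against DMSO. None of the 3 was called in libraries titled sunitinib against DMSO (median 0.01), where 19.3% of all tested genes were. Without DMSO replicate 1, 1 of them was called there. Both TNFRSF21 and TNFRSF25 were lower in libraries titled MI-389 than in those titled sunitinib (list median −0.31), where 20.3% of all tested genes were called lower. For TNFRSF25 the adjusted p was 0.0405. That call was lost without replicate 1 (0.0729), 2 (0.0609) or 3 (0.127) of the libraries titled sunitinib or replicate 2 (0.138) or 3 (0.0996) of those titled MI-389.

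Of 18 tested regulators of the TNF receptor complex and of RIPK1, 8 were higher and 3 lower in libraries titled MI-389 against DMSO, with a median of 0.07 against −0.00 over all genes. The share called was close to the 56.7% of all tested genes (28.5% higher, 28.3% lower). BIRC2 (cIAP1), a ubiquitin ligase of RIPK1, averaged 65.5 ± 3.02 FPKM in libraries titled MI-389, 38.1 ± 2.59 FPKM in those titled sunitinib and 38.6 ± 2.79 FPKM in DMSO libraries (SD, n = 3 each), and was 1.70-fold higher than in DMSO (adjusted p = 1.92e-05). TNFAIP3 (A20), an editor of ubiquitin chains that restrains NF-kB, averaged 24.2 ± 1.87 FPKM in libraries titled MI-389, 13.0 ± 0.966 FPKM in those titled sunitinib and 15.2 ± 1.00 FPKM in DMSO libraries (SD, n = 3 each), 1.60-fold higher than in DMSO (adjusted p = 0.000101). TAB2, a ubiquitin-chain reader of the TAK1 complex, was 1.43-fold higher (adjusted p = 0.000232) and the deubiquitinase CYLD 1.37-fold (adjusted p = 0.000282). TRAF2, which brings the cIAP proteins to the receptor, was the single gene called in libraries titled sunitinib against DMSO, at 40.3 ± 1.23 FPKM against 52.1 ± 4.90 FPKM (log2 difference −0.36, adjusted p = 0.00894), while the list median was −0.04. Between the treated groups 7 of the 18 were higher in libraries titled MI-389 and 0 lower (median 0.11), against 36% and 20.3% of all tested genes. These counts moved with the scaling: under quantile normalization, cyclic loess or median centring 4 to 5 genes were called for sunitinib against DMSO, and 12 to 13 between the treated groups.

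Of 4 necroptosis genes 2 were tested. RIPK3 and ZBP1 were below the filter, RIPK3 at 0.766 ± 0.223 FPKM in libraries titled MI-389, 0.586 ± 0.0939 FPKM in those titled sunitinib and 0.484 ± 0.116 FPKM in DMSO libraries (SD, n = 3 each). MLKL, the pore-forming executor that RIPK3 activates, had 21.98, 20.6 and 19.9 FPKM in libraries titled MI-389, 14.1, 14.7 and 14.7 FPKM in those titled sunitinib, and 18.4, 19.5 and 20.5 FPKM in DMSO libraries. The libraries titled sunitinib lay below all the others. MLKL was lower there than in DMSO (log2 difference −0.40, adjusted p = 0.00349, in all 17 alternatives) and had a difference of 0.09 in libraries titled MI-389 against DMSO (adjusted p = 0.202). It was 1.44-fold higher in libraries titled MI-389 than in those titled sunitinib (log2 difference 0.49, adjusted p = 8.55e-05). TICAM1, the other tested gene of this list, was not called in any comparison as deposited, with an adjusted p of 0.0543 between the treated groups that passed the threshold without replicate 3 of the libraries titled sunitinib, without replicate 2 of those titled MI-389 or with spike-in rescaling. The list medians were 0.02, −0.32 and 0.35 for MI-389 against DMSO, sunitinib against DMSO and MI-389 against sunitinib.

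Of 12 other caspase and mitochondrial genes, 3 were higher and 5 lower in libraries titled MI-389 against DMSO (median −0.09), where 28.5% of all tested genes were higher and 28.3% lower. DIABLO (Smac), which relieves caspases of inhibitor proteins, averaged 81.7 ± 1.41 FPKM in libraries titled MI-389 against 62.3 ± 0.798 FPKM in DMSO libraries (SD, n = 3 each; 1.31-fold, adjusted p = 7.45e-05). CASP9, the initiator of the mitochondrial route, averaged 13.4 ± 0.839 FPKM against 8.99 ± 0.504 FPKM (1.49-fold, adjusted p = 0.000175). CASP2 at 72.0 ± 2.68 FPKM against 107 ± 13.2 FPKM (adjusted p = 0.000268) and the survival protein gene BIRC5 at 148 ± 5.95 FPKM against 199 ± 16.7 FPKM (adjusted p = 0.000413) were lower. BID, the substrate that carries the caspase-8 signal to mitochondria, was lower too, at 89.2 ± 1.97 FPKM against 117 ± 10.1 FPKM (log2 difference −0.38, adjusted p = 0.000787). In libraries titled sunitinib against DMSO 0 were higher and 3 lower (median −0.08), against 2.37% and 16.9% of all tested genes: CYCS, cytochrome c (−0.27, adjusted p = 0.0115), BID (−0.28, adjusted p = 0.0172) and CASP2 (−0.28, adjusted p = 0.0368). Each of those 3 lost its call without replicate 2 or 3 of the libraries titled sunitinib (adjusted p 0.0573 and 0.0548 for CYCS, 0.0695 and 0.0717 for BID, 0.0962 and 0.106 for CASP2), and CASP2 also without replicate 1 of that group (0.09) or DMSO replicate 2 (0.0894) or 3 (0.0774). With cyclic loess 5 genes of the list were called. Between the treated groups 4 were higher and 4 lower in libraries titled MI-389 (median −0.07), against 36% and 20.3% of all tested genes.

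Of 11 modulators of the death-inducing complex, 4 were higher and 3 lower in libraries titled MI-389 against DMSO (median −0.03), where 56.7% of all tested genes were called. Without replicate 1 of the libraries titled MI-389, 4 in all were called. CUL3, the cullin that modifies caspase-8 with ubiquitin, had 21.1, 20.7 and 21.3 FPKM in libraries titled MI-389, 42.4, 37.2 and 38.4 FPKM in those titled sunitinib, and 41.0, 42.0 and 44.9 FPKM in DMSO libraries. It lay far below both other groups, at 0.493 of its level in DMSO (log2 difference −0.99, adjusted p = 1.60e-06). ITCH, a ubiquitin ligase of c-FLIP, averaged 62.9 ± 2.04 FPKM in libraries titled MI-389 against 43.8 ± 3.27 FPKM in DMSO libraries (SD, n = 3 each; 1.44-fold, adjusted p = 9.49e-05). DEDD2, a death-effector-domain protein, at 26.7 ± 1.04 FPKM against 39.9 ± 5.27 FPKM (adjusted p = 0.000489), and BCAP31, a caspase-8 substrate of the endoplasmic reticulum, at 143 ± 4.51 FPKM against 184 ± 17.5 FPKM (adjusted p = 0.00229), were lower. In libraries titled sunitinib against DMSO 0 were higher and 4 lower (median −0.15), against 2.37% and 16.9% of all tested genes. CASP8AP2, a caspase-8-associated protein, was lower there (−0.40, adjusted p = 0.00753, in all 17 alternatives). PEA15 (−0.26, adjusted p = 0.0148), FAF1 (−0.29, adjusted p = 0.0162) and TNFAIP8 (−0.23, adjusted p = 0.0201) were called lower too. These 3 lost their calls without replicate 2 (adjusted p 0.0608, 0.0601 and 0.0847) or 3 (0.06, 0.0598 and 0.0824) of the libraries titled sunitinib, and FAF1 (0.0568) and TNFAIP8 (0.0591) also without DMSO replicate 2. Between the treated groups 6 were higher and 2 lower in libraries titled MI-389 (median 0.19), against 36% and 20.3% of all tested genes.

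**Figure D5:**
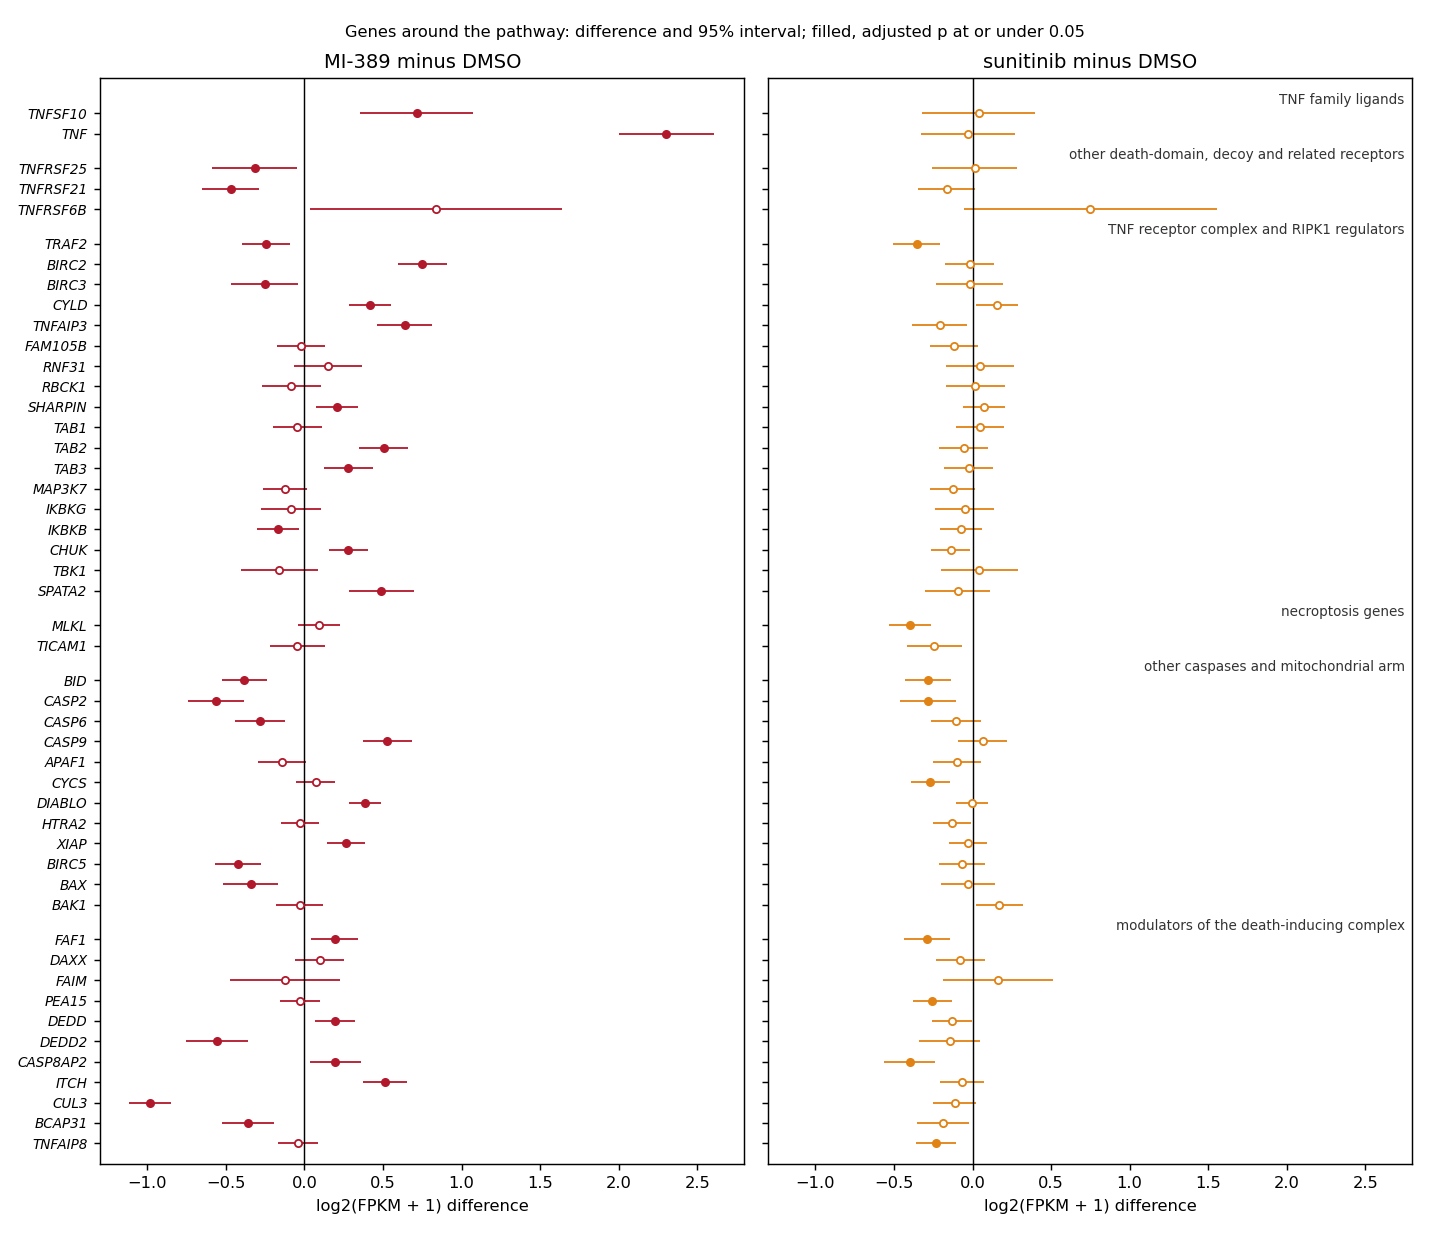
Difference in log2(FPKM + 1) with its 95% interval for the tested genes of 6 lists around the pathway, for libraries titled MI-389 minus DMSO and sunitinib minus DMSO, 3 libraries a group; filled points passed an adjusted p of 0.05. TNF at 2.30, which passed the filter only through the group titled MI-389, and CUL3 at −0.99 lie farthest from 0 in the MI-389 panel; all filled points of the sunitinib panel lie below 0.

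Of 7 tested stress factors linked to TNFRSF10B, 6 were higher and 0 lower in libraries titled MI-389 against DMSO (median 1.80), where 28.5% of all tested genes were higher and 28.3% lower. DDIT3 (CHOP) had 251, 235 and 246 FPKM in libraries titled MI-389, 33.2, 34.6 and 40.9 FPKM in those titled sunitinib, and 44.6, 41.3 and 48.1 FPKM in DMSO libraries, 5.46-fold higher than DMSO in the mean (adjusted p = 5.06e-08), where TNFRSF10B was 1.13-fold higher with an adjusted p of 0.104. ATF4 was 1.79-fold higher (adjusted p = 2.30e-05), TRIB3 3.60-fold (adjusted p = 5.06e-08), ATF3 25.9-fold (adjusted p = 1.46e-09) and the AP-1 subunit JUN 121-fold (adjusted p = 2.53e-10). In libraries titled sunitinib against DMSO, 0 were higher and 2 lower (median −0.18), against 2.37% and 16.9% of all tested genes: JUN (−0.80, adjusted p = 0.00208) and DDIT3 (−0.30, adjusted p = 0.0347). The DDIT3 call was lost without DMSO replicate 3 (adjusted p = 0.1) and without replicate 1 (0.109) or 2 (0.121) of the libraries titled sunitinib. Median centring (0.0705), quantile normalization (0.0933) and cyclic loess (0.143) removed it too. ATF4, ATF3 and TRIB3 were not called there as deposited (0.18, −0.21 and 0.19, adjusted p = 0.141, 0.108 and 0.0574). ATF3 was called lower without DMSO replicate 2 (−0.32, adjusted p = 0.0188). ATF4 was called higher with median centring (0.27, adjusted p = 0.0109), quantile normalization (0.27, 0.000195) and cyclic loess (0.30, 2.18e-05). TRIB3 was called higher under the same 3 scalings (0.27 to 0.29, adjusted p 0.00169 to 0.00302). Its call also passed with spike-in rescaling (0.0482) and at a mean of at least 5 FPKM (0.0433). Between the treated groups all 7, SP1 and ERN1 included, were higher in libraries titled MI-389 (median 1.60), against 36% of all tested genes.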

How the data were processed

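Per the labels' protocols, MOLT4 RNA came from a miRvana isolation, ERCC spike-in RNA was added by cell number, and polyA libraries were made with the SMARTer v4 low-input kit, which keeps no strand information. The submitters' processing notes name HISAT, Cufflinks 2.0.0 and hg19. For the annotation, the counting settings and any normalization between libraries, the answer is: not given in the sources used here. Values are FPKM as the authors deposited them, in 23713 rows, 92 of them spike-in RNAs, with 1 column per library. Undetected rows stand near 0.1 FPKM, not at 0.

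Libraries were grouped by title. The tested set was the 12301 genes whose mean FPKM was 1 or more. They were fitted on log2(FPKM + 1) by limma 3.58.1 (R 4.3.3), in 1 model of 3 groups with a variance trend, two-sided, with Benjamini-Hochberg adjustment and a threshold of 0.05. Fold changes are ratios of mean FPKM; for low genes the log2(FPKM + 1) difference understates a change. Ratios and promoter matches are descriptions. Alternatives were pseudocounts of 0.1 and 5, no filter or a mean of at least 5 FPKM, 4 other scalings, the 6 libraries of a comparison without the rest, the replicate number as a block, a fit without the trend, and each library left out in turn. On data simulated for MI-389 against DMSO with 12301 genes, 96 of 100 genes changed by 1 on the log2 scale and 82 of 100 changed by 0.5 were recovered, and 4.30% of calls were false. The simulation drew normal values, raised only those genes and left the rest unchanged. In the data 56.7% of genes were called, in both directions, so these rates do not carry over to them. The members, gene lists and motifs were chosen with earlier results of these data known. Text names all members, up to 4 called genes with the smallest adjusted p per list and comparison, a few further list genes (chosen after their values were seen), and, per member, the genes most like it in pattern. Some genes of the lists are not reported here. No 2 libraries held identical values. Figures were drawn with matplotlib 3.10.9.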

Additional observations from a re-analysis of the deposited data

How the results depend on the processing

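Over all tested genes, calls against DMSO in libraries titled MI-389 numbered 6979, with 6009 to 7249 when single libraries were left out, and 7 of the 9 members were called, with 5 to 6. For MI-389 against sunitinib the 6927 calls became 5946 to 6279 and the 7 members 4 to 6, and 4 without a filter on low values. For sunitinib against DMSO the 2370 calls became 1423 without a filter, 3677 with quantile normalization, 3814 with cyclic loess, 1360 with the 6 libraries alone and 948 to 4250 with single libraries left out. Members called there, 0 as deposited, numbered 2 under each of quantile normalization, cyclic loess and median centring, and 0 to 1 with single libraries left out. Directions turned for values that were never called: in sunitinib against DMSO TNFRSF1A to 0.061 (median centring), 0.082 (quantile), 0.088 (loess), 0.028 (without DMSO replicate 3) and 0.0081 (without sunitinib replicate 1), in a range of −0.091 to 0.028 over single libraries left out, TRADD to 0.021 (median centring) and 0.014 (loess), FADD to 0.0036 (quantile) and 0.0057 (loess), and TNFRSF10B to 0.0037 (median centring). CASP8 in MI-389 against DMSO turned to −0.0069 (median centring) and −0.013 (quantile), and CFLAR in MI-389 against sunitinib to −0.021 (median centring), −0.065 (quantile) and −0.043 (loess). The cause was not tested. Same-numbered libraries deviated together only weakly (r −0.042 to 0.11 across genes), which cannot settle, with 3 libraries a group, whether the numbers pair them. With the replicate number as a block, 6816, 1941 and 6740 genes were called (MI-389 against DMSO, sunitinib against DMSO, MI-389 against sunitinib), and the members called were 7, 0 and 6. A fit without 1 library assumes that the 2 left in its group vary like the others. Depth is unknown, so values near 0.1 FPKM carry no difference.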

Other observations

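Of 8 p53 target genes tested, a group that also includes FAS and TNFRSF10B in textbook lists, 2 were higher and 2 lower in libraries titled MI-389 against DMSO, with a median of 0.12 against −0.00 over all genes. With 8 genes, the share called was close to the 56.7% of all tested genes and is no result about the list. Over the alternatives 2 to 5 of the 8 were called. RRM2B, a ribonucleotide reductase subunit, averaged 18.4 ± 0.412 FPKM in libraries titled MI-389, 12.7 ± 0.638 FPKM in those titled sunitinib and 10.7 ± 1.07 FPKM in DMSO libraries (SD, n = 3 each), 1.72-fold higher than DMSO (adjusted p = 2.83e-05). ZMAT3, an RNA-binding protein gene, was at 0.57 of its DMSO level (log2 difference −0.65, adjusted p = 0.000229). BBC3 (PUMA), which passed the filter only through the group titled MI-389, was higher in the fit with no filter on low values (0.60, adjusted p = 0.0371) and SESN1 was called lower (−0.29, adjusted p = 0.0159). Among filtered genes BBC3 lost its call without DMSO replicate 1 (0.053) or 2 (0.0586) or without replicate 1 (0.0598) or 3 (0.0722) of the libraries titled MI-389, and SESN1 without DMSO replicate 2 (0.057) or MI-389 replicate 2 (0.0578). CDKN1A (p21) had a difference of 0.14 and MDM2 of 0.09, neither called (adjusted p = 0.371 and 0.191). MDM2 was the single gene of the list called in libraries titled sunitinib against DMSO (−0.21, adjusted p = 0.0287; list median −0.10), with 2 called without DMSO replicate 1. That call was lost without DMSO replicate 3 (0.0599) or without replicate 2 (0.113) or 3 (0.102) of the libraries titled sunitinib. Between the treated groups 4 were higher and 2 lower in libraries titled MI-389 (median 0.21), against 36% and 20.3% of all tested genes.

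The genes whose log2(FPKM + 1) followed each member most closely were sought among 10118 genes over the 9 libraries, which fall into groups, so that a shared group difference alone gives a high Pearson r. NCOA3 (r = 0.997) and CCDC132 (0.996) were most like CASP10, SH3BP2 (0.995) and MIER3 (0.993) most like FAS, and FAM193A (0.994) and ATXN2L (0.994) most like TNFRSF1A. For TNFRSF10B these were BIRC6 (0.988) and TSPYL2 (0.986), for FADD XPNPEP1 (0.987) and PTGES2 (0.987), and for RIPK1 USP12 (0.987) and CCDC6 (0.983). The closest patterns were looser for TRADD (GIMAP4, 0.957), CASP8 (TECPR1, 0.931) and CFLAR (GDPD1, 0.902).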
